A study of Arabidopsis thaliana with 12 samples.

Results

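The 10 genes described here are heat-inducible chaperone genes of *Arabidopsis thaliana* and the heat shock factor that drives many of them, named by locus. The choice was made with earlier results of these data known, although no measured value enters the rule. They comprise *HSFA2*, 3 genes of large chaperones (*HSP101*, *HSP90.1* and *HSP70*) and 6 genes of small heat shock proteins (*HSP18.2*, *HSP17.4*, *HSP17.6A*, *HSP17.6II*, *HSP22.0* and *HSP21*). All 10 had a row among the 34133 genes listed, and 9 reached the mean of 0.1 FPKM (fragments per gene, scaled by transcript length and by the size of the library) that was required for a test, as did 22645 genes in all. The gene left out of the tests was *HSP22.0*.

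RNA from seedlings of 4 genotypes was sequenced in 3 replicates each, 12 libraries in all, to ask how loss of BRAT1 changes transcript levels with and without the RNA-directed DNA methylation pathway. The genotypes were the wild type (WT, Col-0), *brat1*, *nrpe1* and the *brat1nrpe1* double mutant. BRAT1 is a bromodomain protein with an ATPase domain that the study describes as an anti-silencing factor, and NRPE1 is the largest subunit of RNA polymerase V. All seedlings, the wild type included, were 10 days old and had grown on agar with 16 h of light and 8 h of darkness. The labels give 23 °C throughout, whereas the general methods of the study give a lower temperature for the dark period. No heat treatment is named for any group. The labels name the mutants without an allele. In the study the double mutant came from a cross of *brat1-1*, a T-DNA insertion line, to *nrpe1*. The labels do not say whether replicates came from separate sowings. The *p* values below therefore measure the spread between these libraries, which may be technical.

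Heat shock proteins are molecular chaperones: they bind proteins that have lost their fold, keep them from aggregating and help them to refold. Small heat shock proteins hold unfolded proteins in a soluble state, the HSP70 and HSP90 families refold them with ATP, and HSP101 pulls proteins out of aggregates. In *Arabidopsis*, factors of the HSFA1 class start the response and induce *HSFA2*, which prolongs it. Most of these genes are nearly silent in unstressed seedlings and are induced strongly by heat. Heat shock factors bind a repeated unit of GAA and its complement TTC, the heat shock element.

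The promoters of *HSFA2*, *HSP17.4* and *HSP21* are shown because the first pair hold the longest match to this element among the members and *HSP21* is the member that passed the threshold used below in a comparison of genotypes. Each run is the 250 bases before the start of the RefSeq gene in assembly TAIR10.1, read 5′ to 3′ on the strand of the gene. Capitals mark a match to 3 repeats (GAANNTTCNNGAA or TTCNNGAANNTTC) in *HSFA2* and *HSP17.4*, and to 2 repeats (GAANNTTC or TTCNNGAA) in *HSP21*. The windows lie at chr2:11135374-11135623 on the plus strand, chr3:16984868-16985117 on the minus strand and chr4:13819972-13820221 on the minus strand.
HSFA2: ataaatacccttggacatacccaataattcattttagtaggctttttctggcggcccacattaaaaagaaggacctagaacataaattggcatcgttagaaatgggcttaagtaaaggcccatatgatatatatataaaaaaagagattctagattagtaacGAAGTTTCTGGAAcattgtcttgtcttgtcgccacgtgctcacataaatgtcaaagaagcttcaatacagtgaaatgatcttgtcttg
HSP17.4: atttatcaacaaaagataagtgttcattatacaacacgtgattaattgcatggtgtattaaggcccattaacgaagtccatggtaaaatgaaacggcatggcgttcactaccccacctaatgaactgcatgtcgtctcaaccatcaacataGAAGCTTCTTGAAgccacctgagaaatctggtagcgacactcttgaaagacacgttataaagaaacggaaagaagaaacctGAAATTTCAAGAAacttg
HSP21: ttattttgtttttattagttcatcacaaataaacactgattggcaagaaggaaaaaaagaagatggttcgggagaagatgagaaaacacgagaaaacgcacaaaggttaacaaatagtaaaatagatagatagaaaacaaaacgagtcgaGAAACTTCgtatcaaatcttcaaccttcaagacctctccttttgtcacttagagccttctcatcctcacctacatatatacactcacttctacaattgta

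Both strands were covered, since each motif was searched with its reverse complement, and every match to 3 repeats also holds matches to 2 repeats. In *HSFA2* the 3-repeat match GAAGTTTCTGGAA began 88 bases before the start. In *HSP17.4* there were 2 such matches, GAAGCTTCTTGAA from 99 bases and GAAATTTCAAGAA from 18 bases before the start. A 3-repeat match was found in 2 of the 10 members, against 0.386% of 27443 promoters of protein-coding genes, and a match to 2 repeats in 4 of 10 members, against 16.15%. Of 67 promoters of the other heat response genes described below, 5 held a match to 3 repeats and 16 to 2 repeats. Among these, the 11 promoters of other small heat shock protein genes held 1 and 4. The other members with a 2-repeat match were *HSP17.6A* (TTCTCGAA from 22 bases before the start) and *HSP21* (GAAACTTC from 100 bases before it). The annotated model of *HSP90.1* holds no untranslated leader, so its window does not lie before transcription. A match is a stretch of letters and no evidence of binding, and the absence of one concerns only these 250 bases.

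The libraries matched their labels for the mutated genes. *BRAT1* was at 11.2 ± 0.222 FPKM in WT and 10.1 ± 0.641 in *nrpe1*, against 3.18 ± 0.244 in *brat1* and 2.86 ± 0.230 in *brat1nrpe1* (mean ± SD, n = 3 each). *NRPE1* was at 4.44 ± 0.497 in WT and 4.97 ± 0.742 in *brat1*, against 1.34 ± 0.0657 in *nrpe1* and 1.07 ± 0.0455 in *brat1nrpe1*. The 4 shoot markers were abundant in every library (summed 23297 to 28347 FPKM), and root markers were present (560.2 to 1430 FPKM for 3 genes). The FPKM table holds no counts, but the smallest steps between its values show what 1 read was worth. By this the 4 libraries numbered replicate 1 were 2.56 to 2.85 times as deep as the shallowest library. The range was 1.0 to 1.36 times for replicates 2 and 3. The study's totals of mapped reads also put replicate 1 deepest, by a somewhat larger factor over the shallowest library. They also show a larger share of reads mapped in replicate 1. Depths used below are those from the steps. Replicates 2 and 3 of a genotype differed by only 1.10 to 1.17 times the counting noise, whereas replicate 1 differed from them by 7.12 to 7.65 times, and different genotypes within replicates 2 and 3 by 1.62 to 2.09 times. The replicate 1 libraries thus stand apart from the other 8, and 2 libraries of a genotype are close to repeats of each other. Each comparison of genotypes is therefore also given with the replicate number as a block, that is, between libraries of the same number.

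The members differed widely in level in these unheated seedlings. FPKM is scaled by transcript length, so levels can be compared between genes as far as the length used for each gene is right. For the lowest members that length is uncertain, as given below. *HSP70* (AT3G12580, chr3:3991117-3993886), a heat-inducible cytosolic HSP70, had the highest mean over the 12 libraries, at 21.1 FPKM. It was followed by the cytosolic class I small protein gene *HSP18.2* (AT5G59720, chr5:24062323-24063300) at 6.75 FPKM, by *HSP90.1* (AT5G52640, chr5:21352557-21355147) at 4.91 FPKM and by *HSP101* (AT1G74310, chr1:27936508-27940369) at 4.33 FPKM. These 3 genes overlapped in range over the libraries. *HSFA2* (AT2G26150, chr2:11135624-11137792) had a mean of 1.07 FPKM.

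The other small heat shock protein genes were close to silence. *HSP17.4* (AT3G46230, chr3:16984118-16984867, class I) had a mean of 0.633 FPKM and *HSP17.6A* (AT5G12030, chr5:3883957-3884838, class II) of 0.397 FPKM. The gene of the plastid protein HSP21 (AT4G27670, chr4:13818825-13819971) had a mean of 0.221 FPKM, and the class II gene *HSP17.6II* (AT5G12020, chr5:3882231-3883111) of 0.190 FPKM. *HSP22.0* (AT4G10250, chr4:6370338-6371372), which encodes a protein of the endoplasmic reticulum, was at 0.0557 FPKM and was listed at 0 in 6 libraries. The reads behind these values are few. The steps gave 80 reads for *HSP17.4* over all 12 libraries, 45 for *HSP17.6A*, 44 for *HSP21*, 21 for *HSP17.6II* and 9 for *HSP22.0*. For these genes the length was chosen so that the values fell near whole reads, so lying near whole numbers is no check. It was 0.481 kb for *HSP17.6A* and 0.559 kb for *HSP17.6II*, whose annotated transcripts have 882 and 881 bases. For *HSP22.0*, 1 read was worth 0.0324 to 0.0328 FPKM in replicate 1 and 0.0737 to 0.0934 FPKM in replicates 2 and 3, so most of its values are 0 or 1 read. *HSP17.4* is overlapped on the other strand by AT3G07365, a noncoding RNA gene with no row among the genes listed, over 453 bases. The protein-coding gene AT3G46220, at 8.78 to 13.8 FPKM, also overlaps it on the other strand, over 60 bases. *HSP101* is overlapped on the other strand by AT1G74300, at 3.36 to 5.39 FPKM, over 101 bases. The counting is not stated to use strand, so that reads in these overlaps cannot be told apart. No other place in the genome matched a member at 98% identity or more over at least 100 bases.

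**Figure D1:**
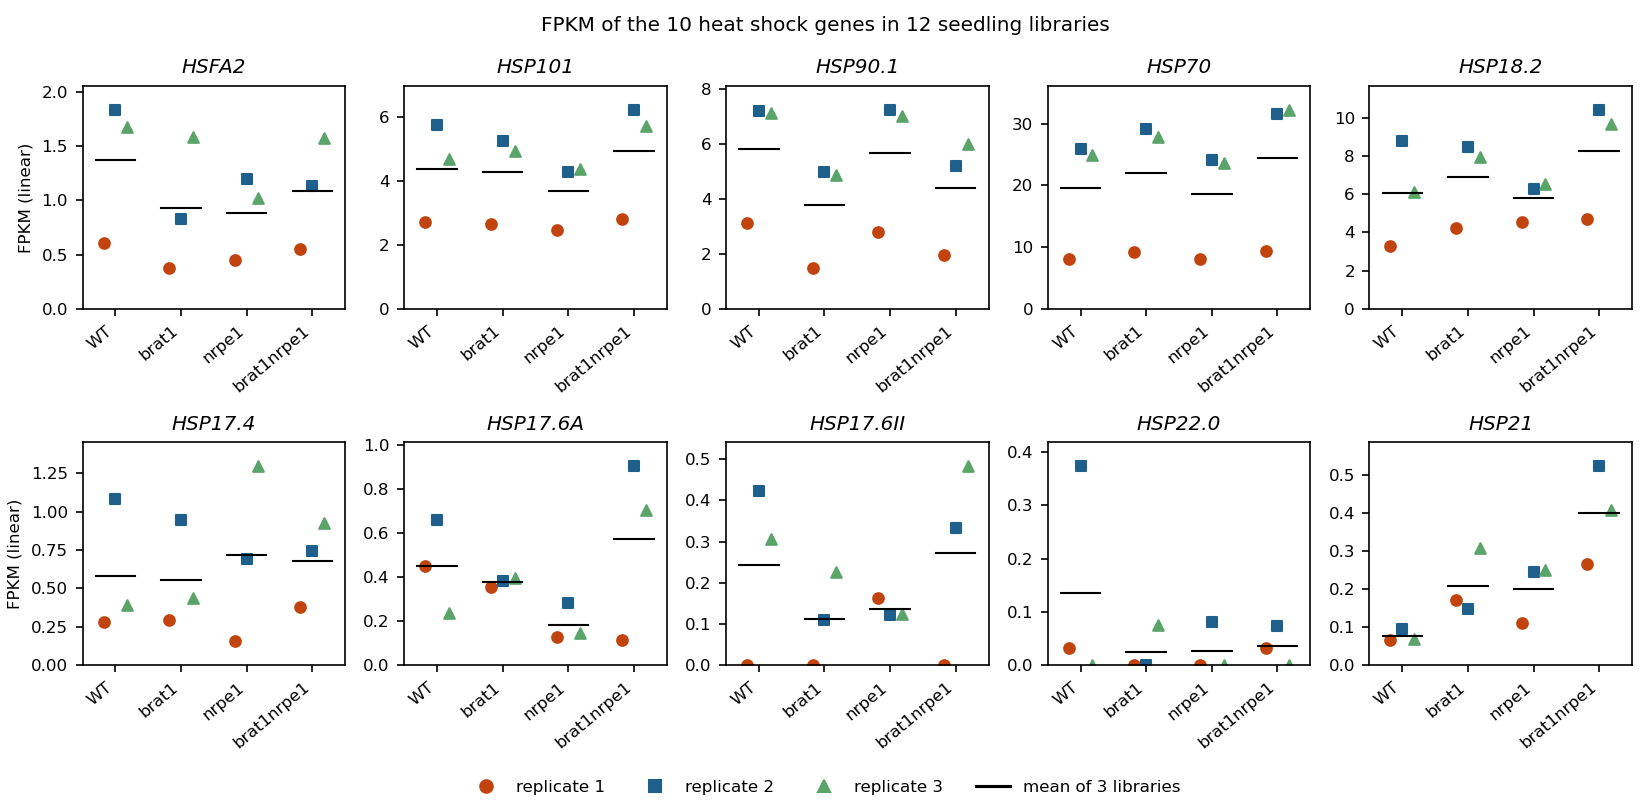
FPKM (linear axis from 0, scaled to each gene) of the 10 members in 12 libraries, by genotype. Circles are replicate 1, squares replicate 2 and triangles replicate 3, and the black line is the mean of 3. For *HSP70*, the circles lie between 8.02 and 9.43 FPKM and the other libraries between 23.55 and 32.2.

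The largest difference in the members was between replicate numbers and not between genotypes. A replicate effect shared by the genotypes was fitted. By it all 9 tested members were lower in replicate 1 than in replicates 2 and 3, as were 47.8% of all tested genes. This did not hold within every genotype. The mean of replicates 2 and 3 was 0.752 times replicate 1 for *HSP17.6II* in *nrpe1* and 0.993 times for *HSP17.6A* in WT. In limma, 5 of 9 members fell past the threshold of *P* under 0.01 and a log2 difference past 1. Of all tested genes, 5.3% were called lower and 7.58% higher. At an adjusted *p* under 0.05, 7 of 9 were lower, against 33% of all tested genes. The median log2 difference of the members was -1.24, against 0.03 for all tested genes. In 6 of the 10 members every replicate 1 library lay below each of the other 8, against 24.5% of tested genes. The replicate number and everything else that differed with it, depth included, cannot be told apart. How the growth or preparation of the replicates differed is not given in the sources used here.

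*HSFA2* was at 0.604, 0.372, 0.453 and 0.555 FPKM in replicate 1 of WT, *brat1*, *nrpe1* and *brat1nrpe1*. In the same order it was at 1.83, 0.823, 1.19 and 1.13 FPKM in replicate 2, and at 1.67, 1.58, 1.02 and 1.58 FPKM in replicate 3. All replicate 1 libraries were below the rest, and the log2 difference was -1.26 (SE 0.17, adjusted *p* = 7.6e-05). With 1 in place of 0.1 added before logs it was -0.64, short of the limit of 1.

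*HSP70* was at 8.02, 9.20, 8.03 and 9.43 FPKM in replicate 1 of the 4 genotypes in that order, at 25.8, 29.1, 24.1 and 31.5 in replicate 2, and at 24.9, 27.8, 23.55 and 32.2 in replicate 3. The sets were far apart, with a log2 difference of -1.64 (SE 0.04, adjusted *p* = 2.4e-10), the largest decrease among the members, and replicates 2 and 3 were 2.97 to 3.38 times replicate 1 in each genotype. *HSP90.1*, a heat-inducible cytosolic HSP90, was at 3.11, 1.496, 2.80 and 1.97 FPKM in replicate 1, at 7.17, 4.99, 7.23 and 5.17 in replicate 2, and at 7.13, 4.86, 7.0 and 6.0 in replicate 3. It fell by 1.40 on the log2 scale (SE 0.08, adjusted *p* = 1.8e-07).

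*HSP101*, whose protein is needed for acquired thermotolerance, was at 2.72, 2.65, 2.45 and 2.82 FPKM in replicate 1, at 5.75, 5.25, 4.28 and 6.23 in replicate 2, and at 4.68, 4.96, 4.38 and 5.74 in replicate 3. Its log2 difference was -0.92 (SE 0.07, adjusted *p* = 1.1e-06), short of the limit of 1 although no library overlapped.

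Among the small heat shock protein genes, *HSP18.2* was at 3.31, 4.25, 4.55 and 4.72 FPKM in replicate 1, at 8.76, 8.45, 6.28 and 10.4 in replicate 2, and at 6.12, 7.95, 6.54 and 9.68 in replicate 3. Again no library overlapped, and the log2 difference was -0.90 (SE 0.11, adjusted *p* = 4.2e-05). Without *nrpe1* replicate 1 it was -1.04 and passed the limit. *HSP17.4* lay between 0.155 and 0.376 FPKM in replicate 1 and between 0.390 and 1.30 in the other libraries. It fell by 1.24 on the log2 scale (SE 0.31, adjusted *p* = 0.0056), and the call was lost without replicate 2 (log2 difference -1.10) and without *nrpe1* replicate 1 (log2 difference -0.97), and the difference was -0.49 with 1 added before logs.

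*HSP17.6II* gave 3 reads in replicate 1, all in *nrpe1*, and 18 reads in the 8 shallower libraries. Its log2 difference was -1.42 (SE 0.41, adjusted *p* = 0.011), a size that depends on the value of 0.1 added before logs (-0.28 with 1 added), and the call was lost when any library but those of *nrpe1* was left out. Per unit of depth the reads of replicates 2 and 3 were 6.87 times those of replicate 1 (95% exact interval 2.01 to 36.4, counting error only). *HSP17.6A* and *HSP21* did not pass, with log2 differences of -0.62 (SE 0.35) and -0.43 (SE 0.24) and overlapping libraries. *HSP22.0* gave 2 reads in replicate 1 and 7 in the others.

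Genes of the wider heat response did not all move with the members. The lists were chosen by family and function, and of their 67 loci 63 were tested. Of 10 other small heat shock protein genes tested, 5 fell past both limits in replicate 1 and none rose past them: *HSP15.4* by 1.97, *HSP17.6C* by 1.67, *HSP23.5* by 1.5, *HSP26.5* by 1.23 and *HSP17.8* by 1.10 on the log2 scale, and the list had a median of -0.97. At an adjusted *p* under 0.05 in limma, 9 were lower and 1 higher, against 33% and 35.7% of tested genes. *HSP15.4*, for example, was at 5.33 to 6.57 FPKM in replicate 1 and at 21.0 to 32.5 FPKM in the other libraries. The chaperone families with mostly constitutive members differed less. None of 12 other *HSP70* genes, 6 other *HSP90* genes and 4 other HSP100 genes passed both limits, with medians of -0.34, -0.32 and -0.09. At an unadjusted *P* under 0.05 in limma, 9, 5 and 2 of them were lower in replicate 1 and 2, 0 and 1 higher, against 34.1% and 36.9% of tested genes.

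Of 17 other heat shock factor genes tested, 4 rose past both limits in replicate 1 and none fell past them, whereas *HSFA2* fell. At an adjusted *p* under 0.05, 9 were higher and 4 lower in limma, the lowest at a log2 difference of -0.74. *HSFA8* rose by 3.39, from 1.19 to 1.85 FPKM in replicates 2 and 3 to 14.0 to 20.0 FPKM in replicate 1. *HSFA6B* rose by 3.21 and *HSFA6A*, like *HSFA6B* a factor linked to drought and salt responses, by 2.41 on the log2 scale. *HSFA1B*, one of the factors that start the heat response, rose by 1.22, from 5.69 to 6.99 FPKM to 14.3 to 16.1 FPKM. Of 14 co-chaperone and heat acclimation genes, 4 fell and 2 rose. The 3 with the largest differences were *DREB2A*, a transcription factor of drought and heat responses, which rose by 2.51, *GOLS1*, a galactinol synthase gene, which fell by 1.90, and *HOP3*, a gene of a co-chaperone that links HSP70 and HSP90, which fell by 1.66.

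Markers of other cell types also differed between these libraries. The summed FPKM of 3 seed markers was 0.692 to 4.72 in replicate 1 and 0 to 0.348 in the other libraries, where each of the 3 was at 0 in at least 1 library, and both of the tested markers rose in replicate 1. The 3 root markers summed to 902.6 to 1430 FPKM in replicate 1 and to 560.2 to 851.5 in the others. The shoot gene *RCA*, for rubisco activase, was at 2234 to 2302 FPKM in replicate 1 and at 5140 to 5503 in the others, and *GAPA1* at 819.4 to 899.8 FPKM and at 1510 to 1653. The other 2 shoot markers were higher in replicate 1, *RBCS1A* at 16457 to 20245 against 13224 to 14512 FPKM and *PSBO1* at 4684 to 4980 against 3221 to 3533. Their part in the differences of the members was not tested.

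**Figure D2:**
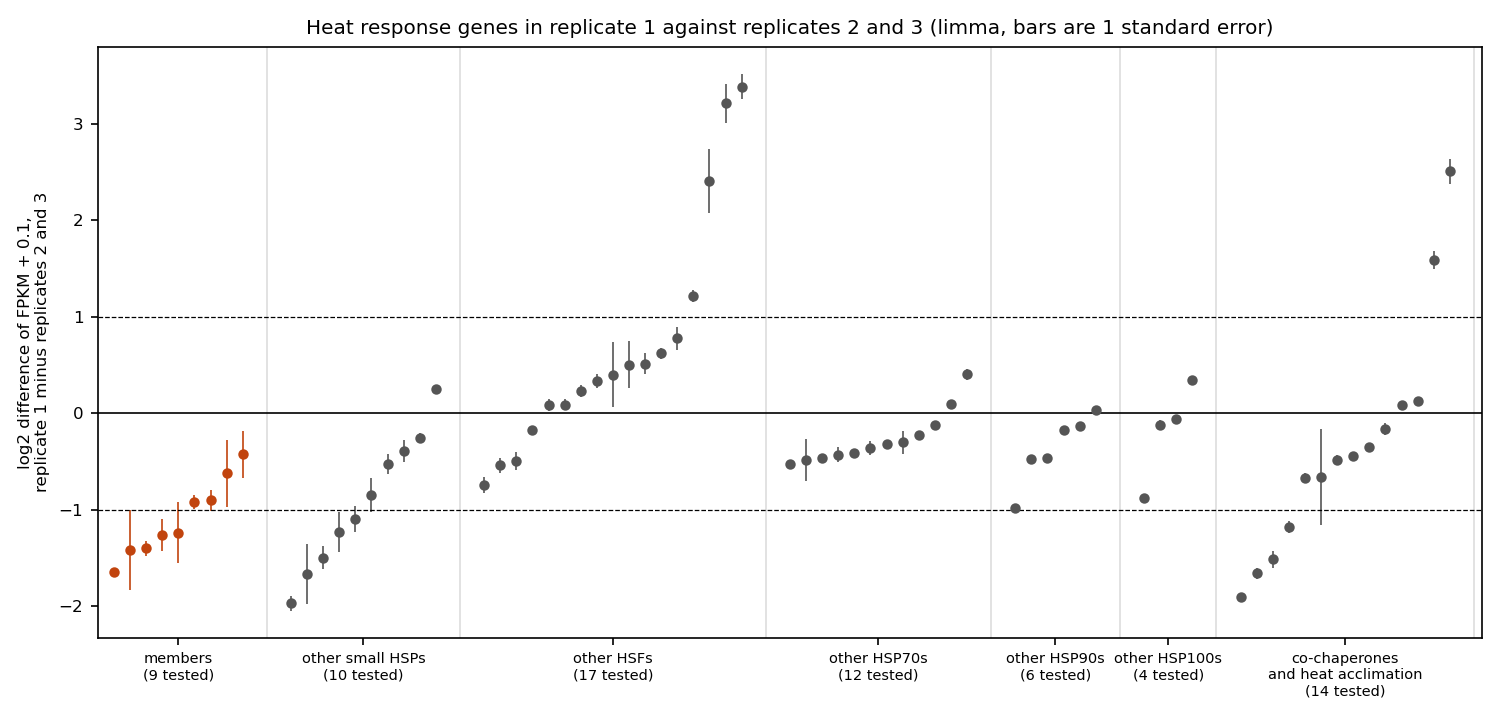
Log2 difference of FPKM + 0.1 between replicate 1 and replicates 2 and 3 for each tested gene (points, bars are 1 standard error) of the members and 6 other lists, with dashed lines at the limits of 1. All 9 members lie below 0, between -1.64 and -0.43, while 4 other heat shock factor genes lie above 1.

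In *brat1* against WT, none of the 9 tested members passed the threshold in either direction, against 0.194% of tested genes called higher and 0.19% called lower by limma. At an unadjusted *P* under 0.05 there was 1 member, *HSP21*, and 4 with the block, of 9 tested, against 2.95% and 13.3% of tested genes. The median log2 difference was -0.03, against 0.00 for all tested genes. The difference with the smallest *P* under the block was that of *HSP90.1*, which was 51.8% lower in *brat1* than in WT in replicate 1, 30.4% lower in replicate 2 and 31.8% lower in replicate 3. The log2 difference was -0.69 (SE 0.61, adjusted *p* = 1) over the 3 libraries of each genotype and had an SE of 0.11 between libraries of the same number (adjusted *p* = 0.024), where 0.336% of tested genes were lower and 0.508% higher at an adjusted *p* under 0.05. When replicates 2 and 3 were averaged, as an alternative chosen after seeing the data, the adjusted *p* with the block was 0.26, and without replicate 1 it was 0.12. *HSP90.1* thus had lower values in all pairs, and its adjusted *p* depended on how the nearly equal libraries were counted.

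*HSP70* was 14.8%, 12.8% and 11.8% higher in *brat1* than in WT in replicates 1, 2 and 3 (log2 difference 0.18, adjusted *p* = 0.17 with the block), which did not pass. *HSFA2* was 38.4%, 55.1% and 5.37% lower, with a log2 difference of -0.57 (adjusted *p* = 0.31 with the block). *HSP101*, *HSP18.2* and the other small heat shock protein genes apart from *HSP21* had pairs in both directions or a pair at 0 in both libraries.

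*HSP21* had its lowest values in WT. It was at 0.0658, 0.0948 and 0.0689 FPKM in WT, at 0.171, 0.148 and 0.307 in *brat1*, at 0.110, 0.244 and 0.250 in *nrpe1*, and at 0.266, 0.523 and 0.407 in *brat1nrpe1*, in replicates 1, 2 and 3. No library of a mutant overlapped with WT, and none of *brat1nrpe1* overlapped with *nrpe1*. Groups that do not overlap in this direction made up 3.45% of tested genes in *brat1* against WT, 3.48% in *nrpe1* against WT, 5.17% in *brat1nrpe1* against WT and 4.2% in *brat1nrpe1* against *nrpe1*. The reads behind the values were 2, 1 and 1 in WT, 5, 2 and 4 in *brat1*, 3, 3 and 3 in *nrpe1* and 8, 7 and 5 in *brat1nrpe1*.

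Only *HSP21* in *brat1nrpe1* against WT passed the threshold: 1 of 9 members was called higher and none lower, against 0.521% and 0.318% of tested genes. The log2 difference was 1.47 (SE 0.33, adjusted *p* = 0.16), with an adjusted *p* of 0.031 under the block. Per unit of depth, *brat1nrpe1* had 4.97 times the reads of WT (95% exact interval 1.67 to 20.0, 20 and 4 reads, counting error only). In the fit without the block, the call was lost without replicate 2 (log2 difference 1.36) and without replicate 3 (1.41). It was also lost when replicates 2 and 3 were averaged (1.39). Each of these had an adjusted *p* of 1. With 1 in place of 0.1 added before logs it was lost too (log2 difference 0.37). With the block, the call was kept with replicates 2 and 3 averaged (adjusted *p* = 0.19) and without replicate 1 (adjusted *p* = 0.052). In the main fit without the block, the log2 differences of *HSP21* were 0.78 in *brat1* against WT, 0.74 in *nrpe1* against WT and 0.73 in *brat1nrpe1* against *nrpe1*. Each had an adjusted *p* of 1. In the same order the read ratios per unit of depth were 2.74 (95% exact interval 0.812 to 11.8), 2.42 (0.675 to 10.8) and 2.06 (0.895 to 5.13). The log2 differences include the 0.1 added before logs and the read ratios do not. The intervals of these 3 comparisons all include 1, so a difference was not detected from the reads alone.

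**Figure D3:**
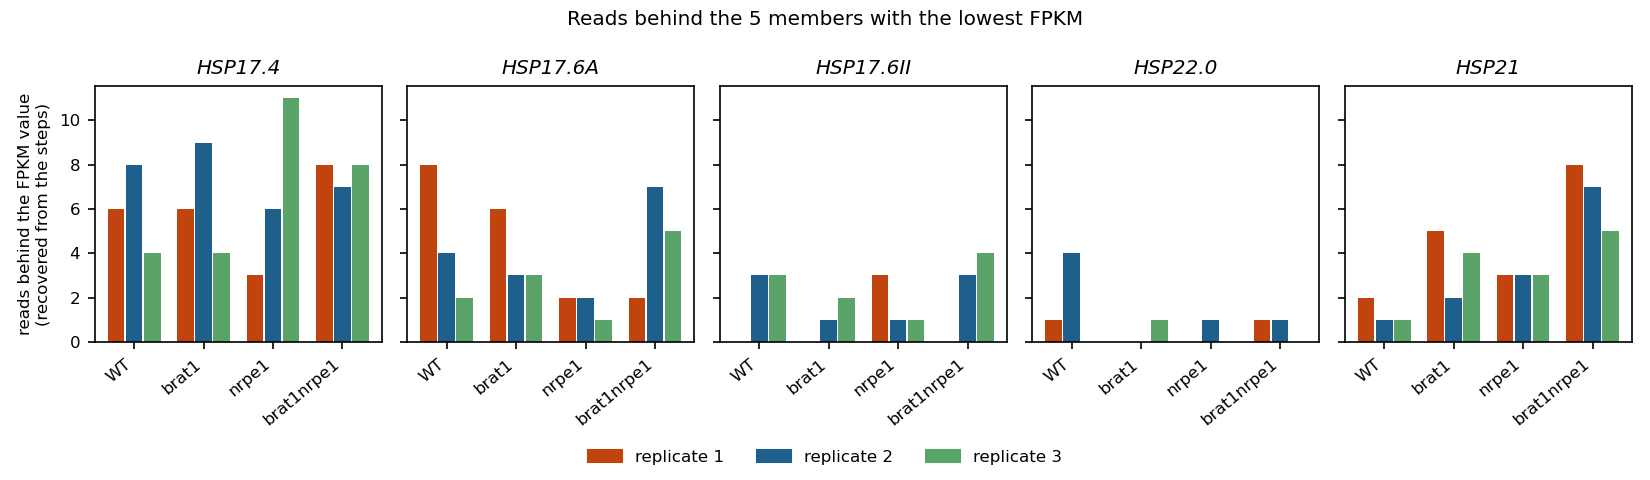
Reads behind the values of the 5 members with the lowest FPKM (bars start at 0), recovered from the steps of the FPKM table, for each genotype and replicate. No library gave more than 11 reads for any of them, and *HSP21* had 1 or 2 reads in each WT library and 5 to 8 in each *brat1nrpe1* library.

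In *nrpe1* against WT, none of the 9 members passed, against 0.477% of tested genes called higher and 0.185% called lower by limma, 1 member was at an unadjusted *P* under 0.05 and 3 were with the block (3.04% and 12.9% of tested genes), and none reached an adjusted *p* under 0.05 with the block, which 0.813% of tested genes did upwards and 0.477% downwards. Their median log2 difference was -0.06, against 0.01 for all tested genes. *HSP90.1* was 9.99% lower, 0.779% higher and 1.79% lower in the 3 pairs, a log2 difference of -0.05 (SE 0.11 with the block), and *HSP70* differed by -0.06 (SE 0.05 with the block). *HSFA2* was 24.96%, 35.0% and 39.2% lower in *nrpe1* (log2 difference -0.53, adjusted *p* = 0.35 with the block), and *HSP101* was lower in all 3 pairs by 9.97%, 25.6% and 6.39% (log2 difference -0.22, adjusted *p* = 0.36 with the block). *HSP17.6A* was also lower in all pairs, by 0.92 on the log2 scale, but with 5 reads in *nrpe1* and 14 in WT its adjusted *p* was 0.45 with the block.

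In *brat1nrpe1* against WT, members apart from *HSP21* stayed within the limits of the threshold, and the median log2 difference was 0.15, against 0.01 for all tested genes. With the block and an adjusted *p* under 0.05, 2 members were higher (*HSP21* and *HSP70*) and 1 was lower (*HSP90.1*), against 3.23% and 2.42% of tested genes. *HSP70* was 17.59%, 21.9% and 29.5% higher in the double mutant (log2 difference 0.30, block SE 0.05, adjusted *p* = 0.010 with the block), and *HSP90.1* was 36.7%, 27.9% and 15.8% lower (log2 difference -0.45, block SE 0.11, adjusted *p* = 0.046 with the block). With replicates 2 and 3 averaged, the blocked adjusted *p* was 0.17 for *HSP70*, 0.22 for *HSP90.1* and 0.19 for *HSP21*. Without replicate 1 it was 0.019 for *HSP70*, 0.11 for *HSP90.1* and 0.052 for *HSP21*.

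In *brat1nrpe1* against *nrpe1*, which measures the effect of *brat1* where NRPE1 is missing, none of the 9 members passed, against 0.159% of tested genes called higher and 0.349% called lower by limma. At an unadjusted *P* under 0.05 there were 0 of 9 members without the block and 5 with it, against 4.25% and 18.9% of tested genes. The median log2 difference of the members was 0.36, against 0.00 for all tested genes. Of the 9 members 8 were above 0, whereas 50% of all tested genes were below 0. *HSP70* was 17.5%, 30.8% and 36.7% higher (log2 difference 0.36, block SE 0.05) and was the only member with a blocked adjusted *p* under 0.05 (0.0068), a limit that 1.94% of tested genes passed upwards and 1.44% downwards. That value was 0.21 with replicates 2 and 3 averaged and 0.013 without replicate 1. *HSP101* was 14.9%, 45.7% and 30.9% higher (adjusted *p* = 0.063 with the block), and *HSP18.2* was 3.69%, 65.8% and 48.0% higher (adjusted *p* = 0.14 with the block). *HSP90.1* was 29.6%, 28.5% and 14.3% lower (log2 difference -0.39, adjusted *p* = 0.088 with the block).

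*HSP17.6A* had a log2 difference of 1.01 in this comparison (SE 0.55, adjusted *p* = 1), from 2, 2 and 1 reads in *nrpe1* and 2, 7 and 5 reads in *brat1nrpe1*. It passed the threshold when *brat1nrpe1* replicate 1 was left out (1.70), and *HSP17.6II* did when replicate 1 of all genotypes was left out (1.18). The comparisons with WT share the WT libraries, and those with *nrpe1* share its libraries, so that the values for a gene are not independent between them.

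**Figure D4:**
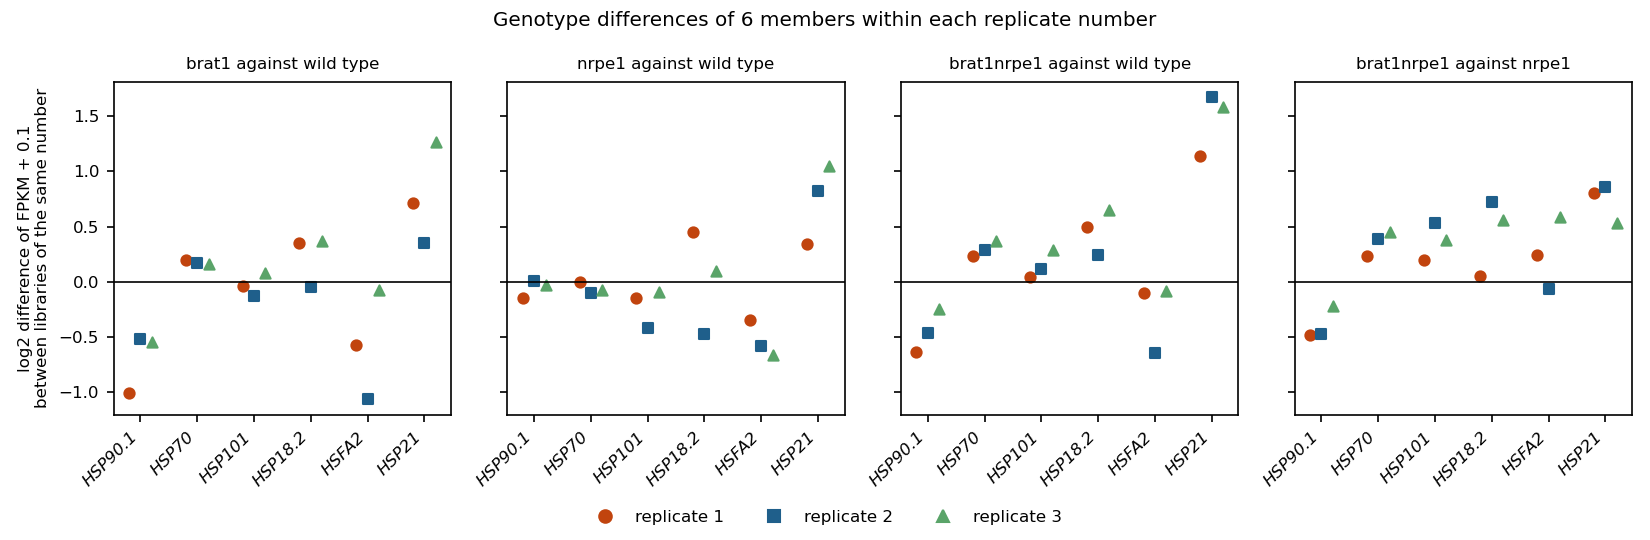
Log2 difference of FPKM + 0.1 between libraries of the same replicate number for 6 members in 4 comparisons (circles replicate 1, squares replicate 2, triangles replicate 3). *HSP90.1* lies below 0 in all 3 pairs of each comparison that adds *brat1*, *HSP70* lies above 0 in the same pairs, and *HSP21* lies above 0 in every pair shown.

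The effect of *brat1* was then compared between the backgrounds with and without NRPE1. The difference of the effects passed the threshold in 0 of 9 members, against 0.102% of tested genes called higher and 0.181% called lower by limma. At an unadjusted *P* under 0.05 there were 0 members without the block and 3 with it, namely *HSP101* (log2 difference of the effects 0.40), *HSFA2* (0.83) and *HSP70* (0.18), with adjusted *p* values of 0.54, 0.59 and 0.59. At the same limit were 1.37% of tested genes without the block and 7.76% with it. *HSP90.1*, which was lower with *brat1* in every pair of both backgrounds, had a difference of 0.29 (adjusted *p* = 0.71), and *HSP21* of -0.04 (SE 0.45 with the block). *HSP17.6II* passed the threshold only when replicate 1 was left out (1.99), and *HSP17.6A* only when *brat1nrpe1* replicate 1 was left out (1.83).

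Of the 63 tested genes of the other heat lists, *HSP17.6A-CI* and *BIP3* passed the threshold between genotypes. *HSP17.6A-CI* (AT1G59860), a class I small heat shock protein gene, was at 1.03, 1.63 and 1.18 FPKM in WT and 1.09, 1.74 and 1.66 in *nrpe1*, against 2.29, 3.91 and 4.16 in *brat1* and 2.79, 3.95 and 3.14 in *brat1nrpe1*. It rose by log2 differences of 1.34 in *brat1* against WT, 1.31 in *brat1nrpe1* against WT and 1.10 in *brat1nrpe1* against *nrpe1*, with adjusted *p* values of 0.29, 0.13 and 0.40, and of 0.0034, 0.0012 and 0.0053 with the block. No other place in the genome matched it at 98% identity or more. Among the members, the class I genes *HSP18.2* and *HSP17.4* did not pass in any of these comparisons. *BIP3* (AT1G09080), an HSP70 gene of the endoplasmic reticulum induced by unfolded proteins there, was at 0.0380, 0.183 and 0.161 FPKM in WT and at 0.343, 0.601 and 0.613 in *nrpe1*. It rose by 1.48 in *nrpe1* and by 1.27 in *brat1nrpe1* against WT on the log2 scale (adjusted *p* = 0.27 and 0.30, and 0.046 and 0.037 with the block).

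Flower markers had higher values in the libraries that carry *brat1*. The summed FPKM of *AG*, *AP3* and *PI* was 1.71 to 2.80 in *brat1* and 1.66 to 2.43 in *brat1nrpe1*, against 0.706 to 0.909 in WT and 0.740 to 0.845 in *nrpe1*, and *AP3* was at 0 in a WT library. *AP3* was the marker of the 3 that passed the threshold in *brat1* against WT. The part of these markers in the differences of *HSP90.1*, *HSP70* and *HSP21* was not tested. Root markers summed to 843.1 to 1430 FPKM in *brat1nrpe1* and 560.2 to 902.6 in WT, and seed markers to at most 4.72 and 1.68 FPKM. In whole seedlings, fewer cells of a type and less RNA per cell cannot be told apart.

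The genes whose pattern was most like that of the members were sought among 19421 tested genes with a mean of at least 1 FPKM. The measure was Pearson's correlation over the 12 libraries with the mean log2 value of all 10 members, the untested *HSP22.0* included. The 5 highest were AT1G60870 (*MEE9*, *r* = 0.977), AT3G60160 (*ABCC9*, 0.976), AT5G36220 (*CYP81D1*, 0.974), AT1G07670 (*ECA4*, 0.973) and AT4G01680 (*MYB55*, 0.973). The libraries fall into replicate 1 and the rest, which raises these values. Over the 8 libraries of replicates 2 and 3 alone, *r* was between 0.854 and 0.949 for the 5 genes. These 8 libraries were among the 12 by which the genes were picked, so the values are no separate check. *ABCC9*, for example, was at 0.590 to 0.760 FPKM in replicate 1 and at 1.06 to 1.62 FPKM in the other libraries.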

How the data were processed

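Poly-A RNA of 10-day-old seedlings was sequenced from 4 genotypes in 3 replicates. The authors mapped reads to TAIR10 with TopHat2 (version 2.0.12 in their processing notes) and deposited one FPKM value per gene and library, computed with Cufflinks (2.0.1). No counts were used, since the deposited values hold none. Depth was read from the steps of low FPKM values. For the members with few reads, the length was fitted so that values fell near whole reads, and their read counts rest on it. Intervals of read ratios are exact (Clopper-Pearson, 95%) and cover counting error only.

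Groups follow the sample titles. Log2 of FPKM + 0.1 of 22645 genes with a mean of at least 0.1 FPKM was fitted with limma 3.58.1 in R 4.3.3 over all 12 libraries. A gene was called at *P* under 0.01 and a log2 difference past 1, the limits the study applied to genes, and *p* values were adjusted over all tested genes (Benjamini-Hochberg). The study's own test within Cuffdiff was not repeated. The fit was tested on simulated data. Only those for *brat1nrpe1* against WT, fitted with the block, carried the replicate differences of the real data. The fits without the block were therefore not tested with such differences.

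Replicate numbers come from the titles. Libraries of the same number deviated together from their genotype means (18 pairs, mean *r* = 0.682, lowest 0.593), against a mean of -0.271 in 36 pairs of different number, so a fit with the number as a block is given beside the main one.

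The members and lists were chosen with earlier results of these data known. Named are all members, *BRAT1* and *NRPE1*, every gene of the other heat lists past the threshold (the 3 largest in size where over 5 in a list), and the 5 genes most like the members. *HSFB1* was not analysed here. Other alternatives were another pseudocount and filter, averaging replicates 2 and 3, an adjusted *p* limit, and leaving out libraries. Gene positions and promoters are RefSeq's (TAIR10.1). Copies were sought with BLAST 2.17.0.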

Additional observations from a re-analysis of the deposited data

How the results depend on the processing

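Over all alternatives, no member value that passed the threshold in the main fit or in an alternative changed its sign. Of 970 member values in the genotype comparisons, 102 changed sign, all of them values that did not pass, and 0 of 185 did so in the comparison of replicate 1 with replicates 2 and 3. The number of genes past the threshold was 87 in *brat1* against WT, 150 in *nrpe1* against WT, 190 in *brat1nrpe1* against WT, 115 in *brat1nrpe1* against *nrpe1*, 64 for the effect of *brat1* with and without NRPE1, and 2918 for replicate 1 against replicates 2 and 3. In that order, a pseudocount of 1 gave 25, 62, 64, 33 and 30 genes for the genotype comparisons, a mean of at least 1 FPKM gave 41, 66, 89, 42 and 30, and an adjusted *p* under 0.05 gave 10, 75, 51, 26 and 5. Averaging replicates 2 and 3 gave 47 genes in *brat1* against WT, 96 in *brat1nrpe1* against WT, 68 in *brat1nrpe1* against *nrpe1* and 29 for the effect of *brat1* with and without NRPE1. In the fit blocked by replicate number, the count was 139 in *brat1* against WT, 184 in *brat1nrpe1* against *nrpe1* and 115 for the effect of *brat1*, and the paired fit changed no call of a member by the threshold, while it changed the adjusted *p* values given with the results. With the block and without replicate 1, an alternative chosen after seeing the data, 171, 282, 314, 254 and 240 genes passed.

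The number of members past the threshold fell from 1 to 0 in *brat1nrpe1* against WT with a pseudocount of 1, a mean of at least 1 FPKM, replicates 2 and 3 averaged, or an adjusted *p* under 0.05. It was 1 in *brat1nrpe1* against *nrpe1* (*HSP17.6A*) and 1 for the effect of *brat1* (*HSP17.6II*) with the block and without replicate 1. For replicate 1 against replicates 2 and 3 it was 2 with a pseudocount of 1 and 3 with a mean of at least 1 FPKM, against 5. Leaving out libraries in turn gave 36 to 173 genes in *brat1* against WT, 97 to 278 in *nrpe1* against WT, 88 to 331 in *brat1nrpe1* against WT, 56 to 250 in *brat1nrpe1* against *nrpe1*, 17 to 243 for the effect of *brat1* and 2823 to 2971 for the replicates. The number of members was then 0 to 0, 0 to 0, 0 to 1, 0 to 1, 0 to 1 and 3 to 5. With a mean of at least 1 FPKM required, *HSP21* (mean 0.221), *HSP17.4* (0.633) and *HSP17.6II* (0.190) were not tested and so could not be called. The cause of the other changes was not tested. The 5 members with a mean under 1 FPKM rest on at most 11 reads in a library.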
